A study of Brassica rapa with 18 samples.

Results

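Leaves of Brassica rapa that had received 1 spray of methyl jasmonate (MeJA) were compared with leaves given a mock spray, 72 h after spraying. The comparison was defined by treatment and time alone and held 6 of the 18 RNA-seq libraries of the study: 3 from MeJA-sprayed and 3 from mock-sprayed plants. All plants were wild type of the inbred line R-o-18 (variety trilocularis), were 10 days old when sprayed and had grown at 22 °C in a cycle of 16 h light and 8 h dark. The MeJA spray was 10 mL of a 50 µM solution in 0.1% Tween-20, and the mock spray was distilled water with the same Tween-20. The labels call the libraries of a group independent biological replicates and do not state how many plants each one held, so p-values measure the spread between these samples. The other 12 libraries came from harvests at 10 min and 24 h, and of these the 24 h libraries are used below as the earlier stage of the response; from 10 min only the values of 2 genes are given.

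MeJA is the volatile ester of jasmonic acid, the plant hormone of wounding and of defence against chewing insects. Inside the cell it is converted to jasmonic acid and then to the isoleucine conjugate, which joins the receptor COI1 to the JAZ repressor proteins and leads to their breakdown. Transcription factors such as MYC2 are thereby released, and genes for defence proteins and for defence compounds, in Brassicaceae the glucosinolates among them, are switched on. JAZ genes are themselves among the targets, which limits the signal over time. The question of the 72 h harvest was how much of the response was still present 3 days after the spray.

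The count table gave gene identifiers without names, and only 1 of its 42186 identifiers could be matched to a RefSeq gene, with a total count of 0. No pathway can therefore be assigned to the genes below, and they are described by identifier, level, direction and time course. Levels are given in CPM, the reads of a gene divided by the TMM-scaled size of its library. CPM is not divided by gene length, so classes of level are classes of read number.

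At 72 h, 3709 of 25406 tested genes differed between MeJA and mock, which is 14.6% (adjusted p under 0.05 by Benjamini and Hochberg's method after edgeR's quasi-likelihood test). Of these, 2292 were higher with MeJA (9.02% of those tested) and 1417 were lower (5.58%). Rises made up 61.8% of the calls. The rises were also the larger changes: their median log2 fold change was 0.71, with 10% of them above 1.73, whereas the falls had a median of -0.52, with 10% of them below -1.25. A change of at least 1 on the log2 scale was reached by 726 of the rises (2.86% of genes tested) and 234 of the falls (0.921%). At least 2 was reached by 164 rises and 35 falls, and at least 3 by 58 rises and 7 falls. Over all tested genes the median log2 fold change was -0.02. In whole leaf, fewer cells of a type and less RNA per cell cannot be told apart.

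**Figure D1:**
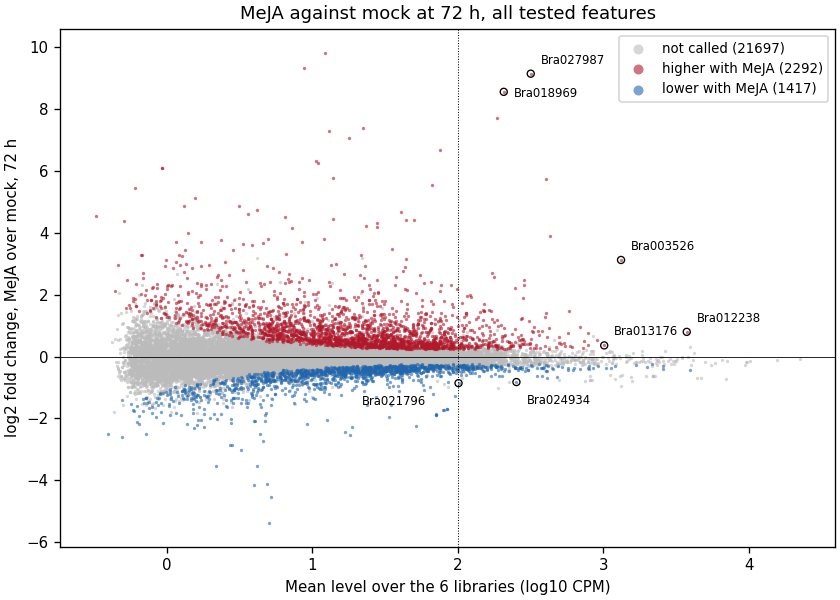
Mean level over the 6 libraries (log10 CPM, horizontal axis) against the log2 fold change of MeJA over mock at 72 h (vertical axis) for 25406 tested features, with 2292 rises in red and 1417 falls in blue. The dotted line marks 100 CPM; to its right the rises reach a log2 fold change of 9.13 and the falls reach -0.86.

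Most of the changes were changes in level rather than in presence. For 7 of the rises the 3 mock libraries together held 3 counts or fewer, and none of these 7 was at 0 in mock. With MeJA they stood between 0.631 and 24.6 CPM, with a median of 1.83 CPM. The filter kept only features above its count limit in at least 3 libraries, so these 7 entered through the 3 MeJA libraries. Their detection in all 3 MeJA libraries, and the size of the lowest level, were thus set by the filter. All 7 were also called higher at 24 h, as were 60.7% of all rises of 72 h and 11.3% of all genes tested at 24 h. Among the falls, no gene had 3 counts or fewer over the 3 MeJA libraries.

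The genes that rose held 13.7%, 13.8% and 11.97% of all counts in the MeJA libraries, against 7.60%, 7.84% and 7.95% in the mock libraries. The genes that fell held 7.01%, 6.72% and 7.08% of the counts with MeJA and 9.09%, 9.27% and 9.02% with mock. These shares describe genes chosen by the same test and are no support for it. Summed over the rises, the gain was 51220 CPM; the 10 genes with the largest gain carried 16.6% of it and 143 genes carried 50% of it. Summed over the falls, the loss was 23562 CPM, of which 87 genes carried 50%.

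The share of genes called grew with level up to 1000 CPM. Under 1 CPM, 57 genes rose and 34 fell of 1752 tested, or 5.19% together. Between 1 and 10 CPM, 691 rose and 453 fell (10.5% of 10930), and between 10 and 100 CPM, 1325 rose and 774 fell (18.4% of 11379). Between 100 and 1000 CPM, 216 rose and 147 fell, or 29.3% of 1239. The sizes ran the other way: the median log2 fold change of the rises was 1.86 in the lowest class, 1.05 and 0.54 in the next ones and 0.51 between 100 and 1000 CPM. At low counts only large changes pass the test, so the medians of the lower classes are raised by the threshold itself. The same limit lowers the shares called in the lower classes, so the classes are not compared at equal power.

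**Figure D2:**
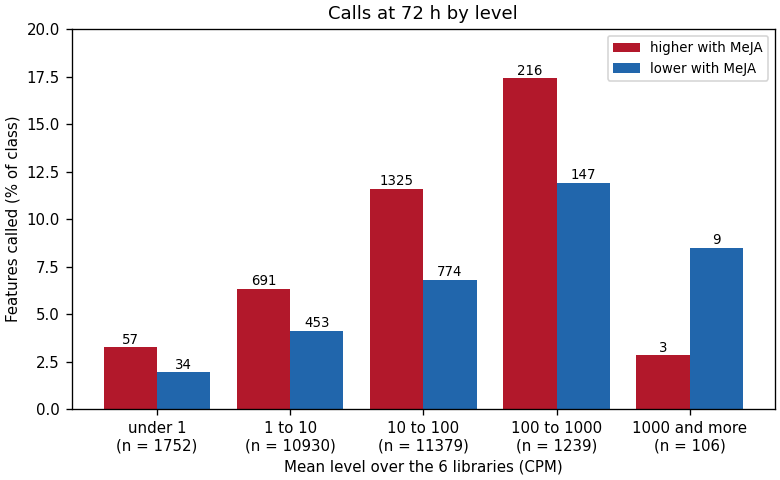
Share of tested features called at 72 h (vertical axis, percent) in 5 classes of mean level over the 6 libraries (horizontal axis, CPM), with rises in red, falls in blue and the number called above each bar. Rises outnumber falls in the 4 classes under 1000 CPM and are 3 against 9 falls in the class of 1000 CPM and more.

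Abundant genes were still changed at 72 h, and the large changes among them were rises. Of 1345 genes that averaged 100 CPM or more across the 6 libraries, 219 were higher with MeJA (16.3%, against 9.02% of all genes tested) and 156 were lower (11.6%, against 5.58%). Genes with fewer reads are tested with less power, so these gaps do not show that abundant genes responded more often. The rises had a median log2 fold change of 0.51 and ran from 0.24 to 9.13; 44 of them reached 1 and 11 reached 2. The falls had a median of -0.36 and ran from -0.25 to -0.86, and 17 of them reached a fall of 0.5. The 3 values of MeJA and the 3 of mock did not overlap for any of these 375 genes, nor for 33.8% of all genes tested. Leaving out MeJA replicate 2 gave 144 abundant rises and 51 falls, MeJA replicate 1 gave 149 and 59, mock replicate 1 gave 166 and 100, and mock replicate 2 gave 146 and 51.

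The 11 abundant genes with a rise of at least 2 on the log2 scale stood between 295.8 and 2373 CPM on average with MeJA, and between 1.09 and 273.6 CPM with mock (log2 fold changes from 2.23 to 9.13; highest adjusted p = 0.0167, edgeR). All 11 were also called higher at 24 h, as were 136 of the 219 abundant rises and 11.3% of all genes tested at 24 h.

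The largest rise among abundant genes was that of Bra027987. It stood at 578.9, 827.3 and 493.4 CPM in the MeJA libraries of 72 h, against 0.517, 1.18 and 1.72 CPM in the mock libraries. The groups lay far apart, with the lowest MeJA library at 8460 counts and the highest mock library at 27. The log2 fold change was 9.13 (SE 0.32; edgeR adjusted p = 3.89e-07), and it stayed between 8.77 and 9.54 over 14 alternatives. At 24 h the same gene was at 6924, 4665 and 7359 CPM with MeJA, against 5.02, 5.79 and 13.9 CPM with mock. Its level at 72 h was thus 10.0% of that at 24 h in MeJA libraries and 13.8% in mock libraries. The log2 response was 9.59 at 24 h (SE 0.49), and the difference between the 2 times, -0.44 (SE 0.61), did not pass the test (edgeR adjusted p = 0.816).

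Bra018969 came next. It stood at 461.7, 554.2 and 222.1 CPM with MeJA, against 1.55, 0.826 and 0.893 CPM with mock at 72 h. MeJA replicate 3 was the lowest of the MeJA libraries for this gene, at 3809 counts, while no mock library held more than 27. The log2 fold change was 8.55 (SE 0.42; edgeR adjusted p = 2.53e-06). At 24 h it had reached 7826, 8771 and 10059 CPM with MeJA, against 14.7, 14.5 and 39.5 CPM with mock. The level at 72 h was 4.64% of that at 24 h with MeJA and 4.76% with mock, and the 2 responses differed by -0.03 on the log2 scale (SE 0.92; edgeR adjusted p = 0.994). At 10 min every MeJA library was above every mock library for both genes: Bra027987 had 16.7, 253.3 and 7.43 CPM against 0.272, 0.189 and 0.145 CPM with mock, and Bra018969 had 10.0, 170.0 and 9.79 CPM against 1.22, 1.01 and 0.506 CPM. Replicate 2 of MeJA at 10 min was the highest library for both.

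Among the 106 tested genes of at least 1000 CPM, 3 rose (2.83%, against 9.02% of all genes tested). These 3 are named because they are so few, after their values were seen. Bra003526 stood at 2449, 2538 and 2132 CPM with MeJA, against 206.8, 251.7 and 362.4 CPM with mock at 72 h. Every MeJA library was several times above every mock library, and the log2 fold change was 3.12 (SE 0.19; edgeR adjusted p = 9.33e-06). At 24 h its means were 9985 ± 1345 CPM in MeJA libraries and 687.5 ± 125.2 CPM in mock libraries (SD, n = 3 each). Bra012238, the most abundant of the 3, averaged 4747 ± 352 CPM in MeJA libraries and 2734 ± 49.1 CPM in mock libraries of 72 h (SD, n = 3 each), a log2 fold change of 0.80 with an SE of 0.08 (adjusted p = 0.000292 by edgeR). Bra013176 averaged 1139 ± 115 CPM in MeJA libraries and 888.6 ± 72.0 CPM in mock libraries (SD, n = 3 each), a log2 fold change of 0.36 with an SE of 0.096 (adjusted p = 0.0353 by edgeR). The call of Bra013176 was lost in 5 of 14 alternatives: without MeJA replicate 2 (adjusted p = 0.129), without mock replicate 1 (0.106), 2 (0.0916) or 3 (0.0507), and with all 18 libraries in the fit (0.124).

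The 9 falls of at least 1000 CPM were 8.49% of the genes tested in this class, against 5.58% of all genes tested. The class as a whole, called or not, had a median log2 fold change of -0.16. The falls were small. Their log2 fold changes lay between -0.45 and -0.26, with MeJA means from 915.4 to 3314 CPM and mock means from 1187 to 4524 CPM. Their number was 2 without MeJA replicate 2, without mock replicate 2 or without mock replicate 3, 4 without MeJA replicate 1 and 16 without MeJA replicate 3. It was 3 with all 18 libraries in the fit, 14 without ENSRNA features, 20 with a replicate block and 21 by DESeq2. It was 6 under scaling by library totals, and the number of rises in this class was 2 to 4 over these fits.

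The largest falls among abundant genes remained under 1 on the log2 scale. Bra021796 stood at 68.8, 66.6 and 80.3 CPM with MeJA, against 116.4, 128.9 and 146 CPM with mock at 72 h. The groups did not overlap, which the choice of this gene required. The log2 fold change was -0.86 with an SE of 0.10 (adjusted p = 0.000754 by edgeR). At 24 h it showed no such gap: its values were 45.7, 99.3 and 59.1 CPM with MeJA and 93.4, 61.8 and 85.9 CPM with mock, with a log2 fold change of -0.24 with an SE of 0.27 (adjusted p = 0.576 by edgeR). The difference between the responses, -0.60 (SE 0.32), did not pass the test (edgeR adjusted p = 0.425).

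Bra024934 stood at 196.0, 172.1 and 179.6 CPM with MeJA, against 329.2, 333.5 and 306.9 CPM with mock at 72 h. Here too all MeJA libraries lay under all mock libraries, which the choice of this gene required. The log2 fold change was -0.82 with an SE of 0.08 (adjusted p = 0.000164 by edgeR, and 0.0519 with all 18 libraries in the fit). The fall had been deeper at 24 h, at 50.6, 112.4 and 43.9 CPM with MeJA against 222.1, 230.0 and 246.4 CPM with mock; the log2 fold change was -1.76 with an SE of 0.31 (adjusted p = 0.00504 by edgeR). The change in its response between the times, 0.95 (SE 0.35), did not pass the test (edgeR adjusted p = 0.221).

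**Figure D3:**
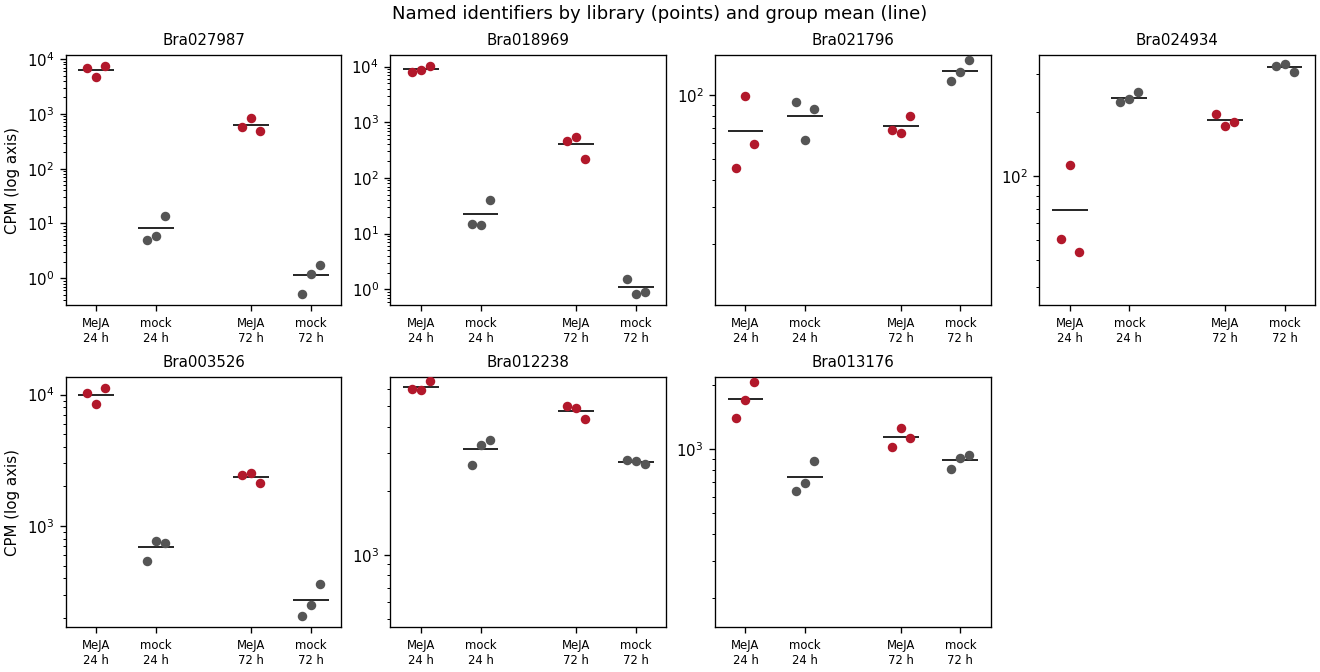
CPM (log axis) of the 7 named identifiers in each MeJA (red) and mock (grey) library of 24 h and 72 h; lines are group means of 3 libraries. At 72 h the MeJA and mock libraries of each of the 7 do not overlap, and Bra027987 and Bra018969 are lower at 72 h than at 24 h in MeJA and mock alike.

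The 24 h and 72 h comparisons had no library in common, so their lists could be set side by side. Of the 2292 rises at 72 h, 1392 (60.7%) were also called higher at 24 h, which is 48.7% of the 2861 rises of 24 h. Of the 1417 falls at 72 h, 571 (40.3%) were also called lower at 24 h, which is 29.2% of the 1957 falls of 24 h. By the same test 11.3% of the genes tested at 24 h were higher and 7.71% were lower. Opposite calls at the 2 times were made for 12 genes. The 24 h list itself numbered 1449 rises and 548 falls on leaving out MeJA replicate 3 of 24 h, 1527 and 792 on leaving out mock replicate 1, and 1714 and 880 on leaving out mock replicate 2. With counts divided by library totals alone, falls outnumbered rises at 24 h, at 3051 against 2130. Shared rises numbered 909 on leaving out MeJA replicate 2 of 72 h, 921 on leaving out MeJA replicate 3 of 24 h and 923 on leaving out mock replicate 1 of 24 h. Shared falls numbered 214 to 314 when any one of 7 libraries was left out, with 214 on leaving out MeJA replicate 2 of 72 h or MeJA replicate 3 of 24 h.

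The fitted sizes of the shared changes were mostly smaller at 72 h. These genes had to be called at both times, and how far that choice raised the sizes at either time was not tested. The direct test of the difference, described below, passed for 165 of the 1392 shared rises and 13 of the 571 shared falls. The median of the shared rises was 0.83 on the log2 scale at 72 h, where it had been 1.14 at 24 h, and 1144 of the 1392 were smaller at 72 h. For the shared falls the median was -0.67 at 72 h, where it had been -1.04 at 24 h, and 508 of the 571 were smaller at 72 h. Levels moved in both treatments: between 24 h and 72 h the shared rises changed by a median of -0.44 on the log2 scale in MeJA libraries and by -0.15 in mock libraries. For the shared falls these medians were 0.25 in MeJA and -0.10 in mock libraries, against 0.01 and -0.01 over all genes. The labels' batch field follows the time point, so time and batch cannot be told apart in these level changes.

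A list called in the 24 h libraries alone described what each library of 72 h still carried. The 72 h libraries entered its choice only through the filter for being tested at 72 h. That filter also passes a gene expressed in a single treatment. Over the 2730 rises of 24 h that were also tested at 72 h, the median log2 level relative to the mock mean was 0.53, 0.51 and 0.38 in MeJA replicates 1, 2 and 3 and -0.04, 0.005 and 0.03 in mock replicates 1, 2 and 3 of 72 h. Over 1926 falls of 24 h it was -0.34, -0.37 and -0.30 in the MeJA libraries and 0.07, 0.02 and -0.09 in the mock libraries. The MeJA libraries lay on the same side of every mock library in both lists. Mock values were taken relative to the mean of the same 3 mock libraries, so they centre near 0 by construction. For rises, 2525 of the 2730 had a log2 fold change above 0 at 72 h, and for falls, 1753 of the 1926 had one under 0. Over all genes tested at 72 h the median log2 fold change was -0.02.

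**Figure D4:**
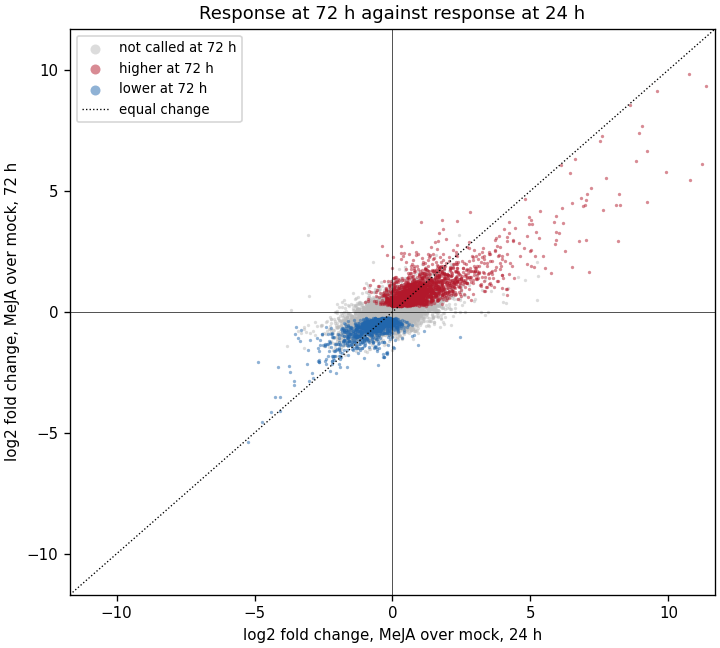
Log2 fold change of MeJA over mock at 24 h (horizontal axis) and at 72 h (vertical axis) for 24839 features tested at both times, with 72 h rises in red and falls in blue and a dotted line of equal change. Pearson's r over these features is 0.76, a description over genes that share libraries within each time, and 1144 of the 1392 rises shared by both times are smaller at 72 h.

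The difference between the responses was tested directly in the 12 libraries of both times. The response at 72 h was more positive than at 24 h for 158 genes (0.599% of 26356 tested) and more negative for 318 (1.21%). Of the 318, 307 had been called higher at 24 h and 165 were still called higher at 72 h. The 318 had a median response of 0.48 (log2) at 72 h, set against 1.85 at 24 h. Of the 158, 129 had been called lower at 24 h and 13 were still called lower at 72 h. Their median response was 0.03 at 72 h, set against -0.89 at 24 h. Both sets were chosen by this test on the same 12 libraries. The gaps between their medians and their calls at 24 h thus follow in part from the choice and are no separate support. These counts ranged from 40 to 536 (more positive) and from 167 to 625 (more negative) when 1 library was left out, the lowest both without MeJA 24 h replicate 3, and DESeq2 gave 344 and 579. More positive differences outnumbered more negative ones, at 301 against 213, when counts were divided by library totals alone, and likewise without MeJA 24 h replicate 1, at 536 against 519. Leaving out 1 library moved the first count by over 1.5 times for 11 of the 12 libraries and the second for 8 of the 12.

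Genes called at 72 h and not at 24 h were numerous, but few of them were shown to have changed their response. There were 895 such rises (39.0% of the rises) and 839 such falls (59.2% of the falls). The test of the difference passed for 28 of these rises and 9 of these falls. Of the 881 late rises that were tested at 24 h, 762 had a log2 fold change above 0 there, and the median response of the late rises was 0.56 at 72 h against 0.30 at 24 h. Of 827 late falls, 732 were under 0 at 24 h, and the median response was -0.46 at 72 h against -0.30 at 24 h. The shares of all genes with these signs at 24 h are not given here. A rise of at least 1 on the log2 scale was seen in 183 of the 895.

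Features with ENSRNA identifiers, Ensembl's prefix for non-coding RNA genes, held a smaller share of the counts in each MeJA library than in any mock library of 72 h. They took 1.69%, 3.98% and 4.03% of all counts in the MeJA libraries, against 5.80%, 5.19% and 4.42% in the mock libraries. The exact permutation test gave p = 0.1, the smallest that 3 against 3 libraries allow (two-sided). At 24 h the mean share went the other way, at 1.85 ± 0.47% with MeJA and 1.30 ± 0.27% with mock (SD, n = 3 each). Of 61 tested at 72 h, 14 were called lower (23.0%, against 5.58% of all features), with log2 fold changes from -1.88 to -0.81 (edgeR). For 7 of the 14 another of the 14 had counts within 5% of its own in every library, so reads of near-identical copies may be counted in several of them. With ENSRNA features left out before scaling, 2308 genes rose and 1456 fell.

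Replicates of 72 h were close to each other and apart from the other treatment. Spearman's correlation of log2 CPM between replicates was 0.983 to 0.989 within MeJA and 0.984 to 0.987 within mock, and 0.959 to 0.978 between a MeJA and a mock library. The SD of the log2 difference between 2 libraries was 0.361 to 0.427 within MeJA, 0.386 to 0.426 within mock and 0.502 to 0.655 between treatments. Over 12724 features of at least 10 CPM, the median SD of log2 CPM among 3 replicates was 0.108 with MeJA and 0.107 with mock. The first principal component of the 6 libraries held 55.5% of the variance and placed MeJA replicates 1, 2 and 3 at 48.1, 46.8 and 23.6, against -38.4, -45.0 and -35.1 for the mock replicates. MeJA replicate 3 thus lay nearest to the mock side. Of the 3709 called genes, 3661 (98.7%) had MeJA and mock values that did not overlap, against 33.8% of all genes tested. The called genes were chosen by a test on the same values, so this share does not measure agreement of replicates.

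The number of calls changed on leaving out single libraries more than the direction did. Each such fit held 5 libraries in place of 6 and so had less power. How much of the change came from that was not tested. Leaving out MeJA replicate 1 gave 1336 rises and 594 falls, and leaving out MeJA replicate 2 gave 1222 and 408. Without MeJA replicate 3, the library nearest to mock, there were 2456 and 1345. Leaving out mock replicate 1, 2 or 3 gave 1559 and 741, 1283 and 514, and 1752 and 1227. Of the calls made with 5 libraries, 1591 of 1630 without MeJA replicate 2 and 1865 of 1930 without MeJA replicate 1 were among the 3709, in the same direction. Without MeJA replicate 3 these were 3039 of 3801, and without mock replicate 1, 2 or 3 they were 2122 of 2300, 1732 of 1797 and 2560 of 2979. Rises remained the majority in all 6 of these fits, at 58.8% to 75.0% of the calls.

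**Figure D5:**
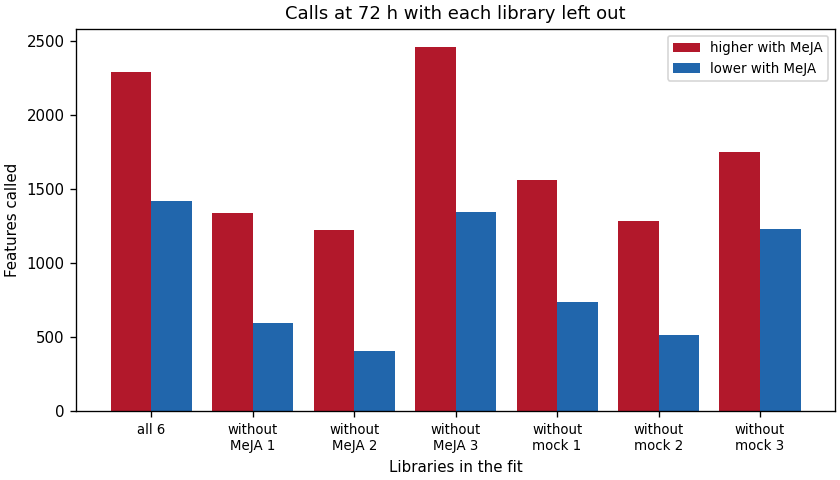
Number of features called at 72 h (vertical axis) with all 6 libraries and with each library left out in turn (horizontal axis), rises in red and falls in blue. Rises exceed falls in every fit, and the totals range from 1630 to 3801, against 3709 with all 6 libraries.

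Library totals at 72 h were 17194235, 17415174 and 17194025 counts with MeJA and 17796115, 17051335 and 15783421 counts with mock, at which 3 counts amount to 0.169 to 0.190 CPM. Replicate pairs differed by a chi-square of 5.69 to 14.7 per degree of freedom over genes that held 10 counts or more in the pair, above the value near 1 that sampling noise alone would give.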

How the data were processed

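The deposited values are raw read counts per gene, whole numbers that the authors did not normalise, per the file headers. FastQC, TopHat2, HTSeq and edgeR are listed in the submitters' processing notes; the build, annotation and strand setting were not given in the sources used here. Near-identical and overlapping genes are therefore uncertain. All 18 value columns matched a sample.

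The 6 libraries of 72 h were fitted alone with edgeR 4.0.16 in R 4.3.3: filterByExpr on both groups, TMM scaling, glmQLFit and glmQLFTest, and a call at a Benjamini-Hochberg adjusted p under 0.05 over all features tested. The 24 h libraries were fitted in the same way on their own, and the difference between the responses as an interaction contrast over 12 libraries. Each SE is the size of the log2 fold change over the square root of its F statistic, an approximation. It is poor for changes near 0, such as the difference of -0.03 for Bra018969. Log2 CPM used a prior count of 2. Simulated counts with known changes, in libraries drawn independently, were also put through the test. The outcome is not given here, so it is no support for the numbers of calls. No test at 10 min is used here.

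The identifiers named are the 2 largest rises and 2 largest falls among called genes of at least 100 CPM with no overlap between groups. This rule and the classes of level were chosen with earlier results of these data known. Gene lists could not be filled, because 1 of 42186 identifiers matched RefSeq (CAAS_Brap_v3.01). Alternatives were DESeq2 1.42.0 and its size factors, scaling by totals, other filters, ENSRNA features removed, all 18 libraries, a replicate block, a threshold of 1 on the log2 scale, other limits of level and each library left out. Floors cover counting error only.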

Additional observations from a re-analysis of the deposited data

Results flagged for a closer look

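By the test of the difference itself, the response to MeJA was not the same at 72 h and 24 h for 476 genes: 158 had a more positive and 318 a more negative log2 fold change at 72 h (edgeR quasi-likelihood test, adjusted p under 0.05). None of the 7 named identifiers was among them, with adjusted p between 0.0669 (Bra013176, a difference of -0.85) and 0.994 (Bra018969). Groups of 3 libraries were not tested for an outlying sample.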

How the results depend on the processing

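Rises outnumbered falls at 72 h in every alternative run, at 58.8% to 75.0% of the calls except where a change of at least 1 on the log2 scale was required (726 and 234), and scaling by library totals moved the median over all genes to 0.01 (log2) and the share of rises to 69.1%. With 1 library left out, the 72 h counts ran from 1222 to 2456 rises and 408 to 1345 falls, the abundant ones from 144 to 233 and 51 to 192, the 24 h counts from 1449 to 3269 and 548 to 2524, the shared rises from 909 to 1449 and shared falls from 214 to 620, and the differences of response from 40 to 536 more positive and 167 to 625 more negative. Why some libraries moved the counts more than others was not tested. With changes of at least 1 on the log2 scale required, the counts were 1377 and 800 at 24 h, 504 and 142 shared, 86 more positive, and 44 rises and 0 falls among abundant genes (edgeR; 1 such fall at an unadjusted p under 0.05 and 0 by DESeq2). At least 50 CPM gave 530 abundant rises and 310 falls, and at least 200 CPM gave 87 and 62. Scaling by library totals turned the larger direction at 24 h and in the difference of responses, with 2130 rises and 3051 falls at 24 h and 301 genes more positive and 213 more negative; DESeq2 gave 344 more positive and 579 more negative. With all 18 libraries in the fit there were 1625 rises and 964 falls at 72 h, 70 abundant falls and 3490 falls at 24 h; the cause was not tested. Whether the replicate numbers pair the samples was not tested. Deviations of equal numbers correlated at 0.302, 0.0416 and 0.104, and those of unequal numbers at -0.198 to 0.0939. MeJA replicate 2 correlated best with mock replicate 3, at 0.0547. The second principal component (16.0% of the variance) placed replicates 1, 2 and 3 at 23.2, -4.97 and -24.2 with MeJA. It placed those of mock at 31.6, 0.22 and -25.9, in the same order. With a replicate block, 2617 genes rose and 1715 fell at 72 h. No named identifier changed direction.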

Other observations

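Some strong rises at 72 h stood beside each other in the deposited table. Of the 164 rises with a log2 fold change of at least 2, 21 (12.8%) had such a rise in the row before or after, against 0.681% of all other tested features. Of all 2292 rises, 17.6% had another rise in an adjacent row, against 10.4% of the features that did not rise. For the 1417 falls these shares were 9.95% and 6.85%, and of the 35 falls of at least 2 on the log2 scale 0 had such a neighbour, against 0.169% of all other features. No coordinates were used here, so whether adjacent rows are neighbouring genes on a chromosome was not tested, and neither was the part of reads shared between similar copies.

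Genes whose MeJA and mock values did not overlap at 72 h without passing the threshold numbered 4921, which is 22.7% of the genes not called. The 3661 that did both were 98.7% of the genes called, and 33.8% of all genes tested did not overlap.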
